A study of Mus musculus with 10 samples.

Results

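TDP-43, the product of human TARDBP and mouse Tardbp, was followed here at the RNA level together with 3 mouse genes for related RNA-binding proteins, Ewsr1, Taf15 and Matr3. These 5 genes were chosen by name from a table of 22024 genes measured in 10 libraries. The mouse genes were found by their Ensembl identifiers, and human TARDBP by its own human identifier (ENSG00000120948), under which reads of the human transgene were counted. All 5 passed the filter on low counts, as did 15191 genes in all.

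Each library was made from the polyA RNA of 1 lumbar spinal cord, taken from a female mouse at 3 months of age. M337V mice (n = 5, animals 1, 2, 3, 7 and 9) carried human TARDBP with the M337V substitution linked to amyotrophic lateral sclerosis (ALS). WT mice (n = 2, animals 8 and 10) carried the unmutated human gene, and NTg mice (n = 3, animals 4, 5 and 6) were labelled as nontransgenic. The human gene lay on a bacterial artificial chromosome that had been inserted as a single copy at the Rosa26 locus by recombinase-mediated cassette exchange in mouse embryonic stem cells, followed by backcrossing to C57BL/6J for at least 3 generations. The labels name both homozygous and heterozygous lines and do not give the zygosity of these animals. The mouse Tardbp gene was not reported as altered in any genotype, so transgenic mice had human TARDBP in addition to their own gene.

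TDP-43 is a mainly nuclear protein that binds UG-rich RNA, represses the use of cryptic exons and controls the level of its own mRNA. In most patients with ALS it leaves the nucleus of affected motor neurons and forms cytoplasmic deposits, and inherited mutations of TARDBP cluster in the glycine-rich C-terminal part of the protein. EWSR1 and TAF15 belong to the FET family, nuclear RNA-binding proteins with low-complexity domains that take part in transcription and can enter stress granules. Matrin-3, encoded by Matr3, is a nuclear matrix protein that binds RNA and TDP-43, is not a FET protein, and is itself mutated in some families with ALS.

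The library labelled NTg 4 went against its label. Reads of human TARDBP numbered 2277, 2192, 2395, 2723 and 2385 in M337V animals 1, 2, 3, 7 and 9, against 2425 and 2335 in WT 8 and 10 and 2415, 1 and 4 in NTg 4, 5 and 6. NTg 4 is kept under its label below, and results that rest on it are given with and without it. Library totals were 18724888 to 19571914 counts in M337V, 19424118 and 20932246 in WT, and 19948913 to 21041474 in NTg. All 4 markers of neurons and all 5 markers of motor neurons were detected in every genotype, with summed motor neuron levels of 158 to 290 CPM over the M337V libraries, 266 and 268 CPM in the WT libraries and 173 to 201 CPM over the NTg libraries (CPM, counts scaled by TMM to a common library size). The edgeR quasi-likelihood test at a Benjamini-Hochberg adjusted p under 0.05 called 651 genes for M337V against NTg, with a strong dependence on single libraries. Leaving out M337V 2 or M337V 3 left 53 or 161, leaving out NTg 4, NTg 5 or NTg 6 left 197, 280 or 2, and leaving out WT 8 or WT 10 gave 1009 or 1016. Nothing in the labels says that the animals came from separate litters or days, so p-values measure the spread between these animals only. In RNA from whole cord, fewer cells of a type and less RNA per cell cannot be told apart.

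The level of human TARDBP did not differ between the transgenic genotypes beyond the spread of the animals. Its level was 116, 118, 125, 141 and 124 CPM in M337V animals 1, 2, 3, 7 and 9, against 127 and 114 CPM in WT animals 8 and 10, and 118, 0.0493 and 0.186 CPM in NTg animals 4, 5 and 6. The ranges of M337V and WT overlapped, M337V 7 was the highest library of all 10, and NTg 4 lay within the range of the transgenic libraries. NTg 5 and NTg 6 were near 0. The M337V mean was 125 ± 9.69 CPM (SD, n = 5), against a WT mean of 120 ± 9.29 CPM (SD, n = 2). In an edgeR fit of these genotypes alone the log2 difference of M337V from WT was 0.05 ± 0.08 (SE), with a 95% interval of -0.13 to 0.24 and an adjusted p of 0.948. In the edgeR fit of all 10 libraries, used for the other genes, it was 0.05 ± 1.07 (interval -2.28 to 2.39, adjusted p = 0.994). That fit shares its spread with the NTg libraries, where NTg 4 stood far above NTg 5 and 6. The exact two-sided permutation test of the difference in CPM gave p = 0.619 (0.696 adjusted over 9 tests), where 0.0476 was the smallest p possible. Neither interval shows that the transgenes are equally expressed. Even the narrower one leaves room for a modest difference in either direction.

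**Figure D1:**
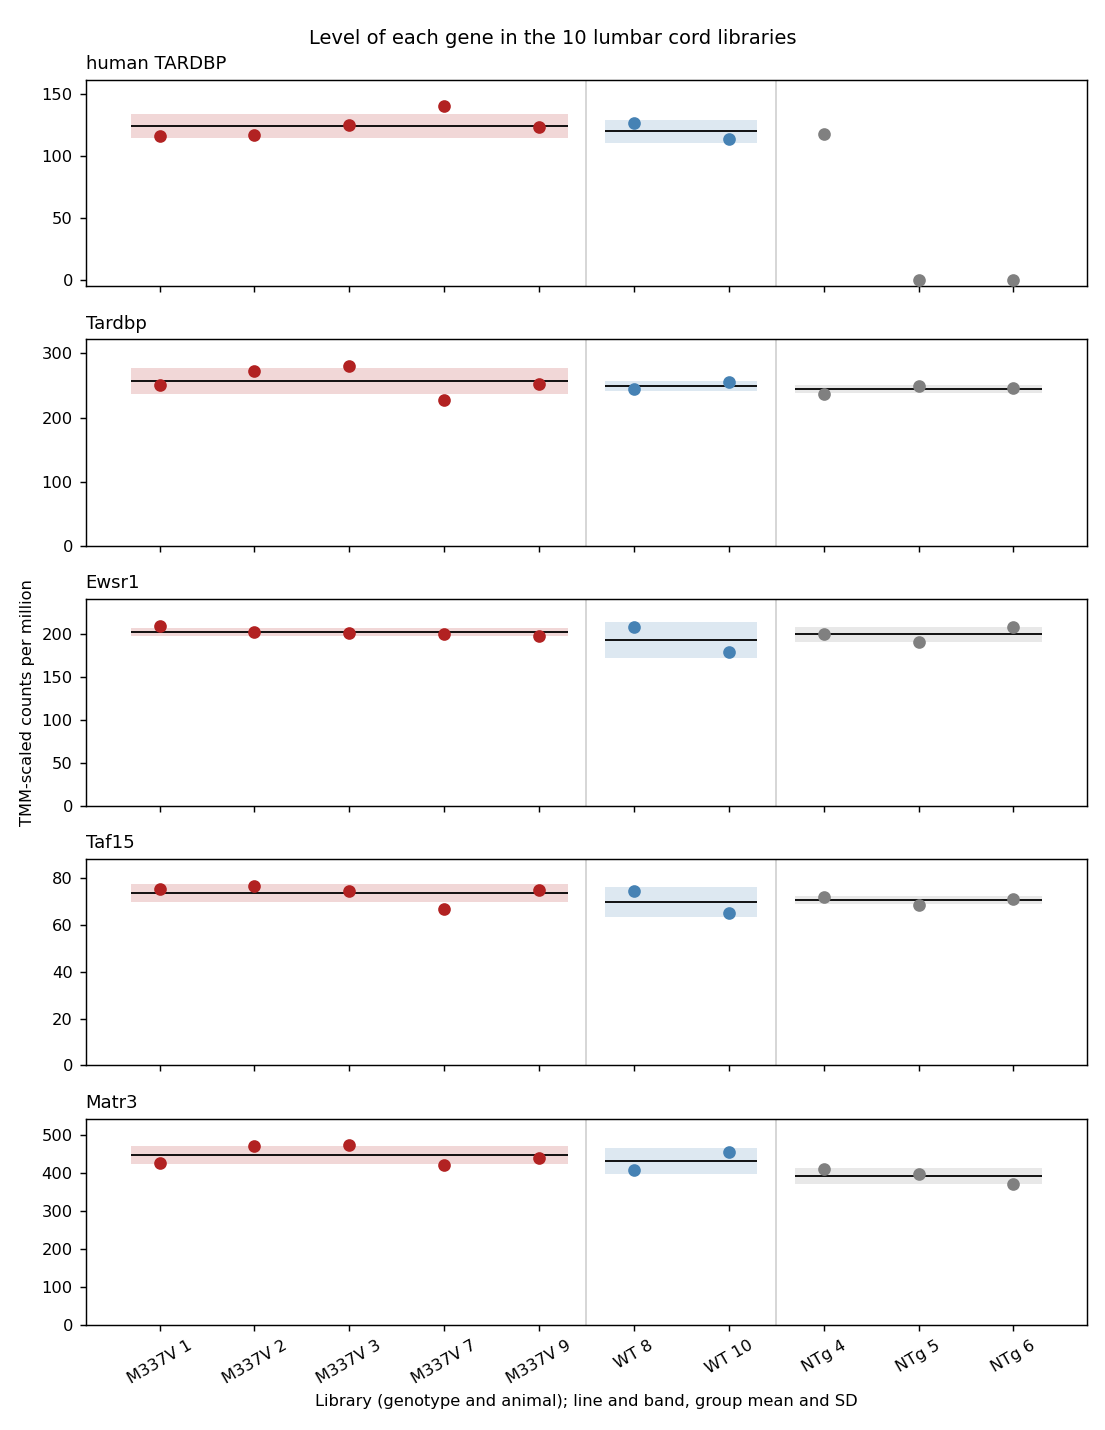
TMM-scaled CPM of human TARDBP and the 4 mouse genes (1 panel each, linear axes) in each M337V, WT and NTg library, with the group mean as a line and the SD as a band. Human TARDBP in NTg has no mean, since NTg 4 stood at 118 CPM and NTg 5 and 6 at 0.0493 and 0.186 CPM; Matr3 is the gene whose M337V libraries all lie above all NTg libraries.

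Against NTg, the comparison of human TARDBP turned on NTg 4. With all 3 NTg libraries the exact permutation test gave p = 0.0536 for M337V (0.241 adjusted over 9 tests, smallest possible 0.0179) and p = 0.3 for WT (0.45 adjusted, smallest possible 0.1). In the edgeR fit the log2 difference from NTg was 1.66 ± 1.02 (SE) for M337V with adjusted p = 0.341, and 1.61 ± 1.18 for WT with adjusted p = 0.426. Without NTg 4 these became 9.96 ± 0.21 with adjusted p = 8.1e-10 for M337V, and 9.91 ± 0.22 with adjusted p = 1.3e-09 for WT. The fitted values without NTg 4 rest on 5 reads in NTg 5 and 6 together and are no firm measure of the fold.

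Mouse Tardbp (GRCm38 chromosome 4, 148612382 to 148627019, minus strand) did not differ between transgenic and nontransgenic mice beyond the spread of the animals. Its level was 250, 272, 280, 228 and 253 CPM in M337V animals 1, 2, 3, 7 and 9, against 244 and 255 CPM in WT and 237, 249 and 246 CPM in NTg 4, 5 and 6. The ranges of all genotypes overlapped, and M337V held both the highest library (animal 3) and the lowest (animal 7). The M337V mean was 256 ± 20.4 CPM (n = 5), beside means of 249 ± 7.50 CPM for WT (n = 2) and 244 ± 6.20 CPM for NTg (n = 3). In the edgeR fit M337V differed from NTg by a log2 of 0.07 ± 0.06 (95% interval -0.06 to 0.21, adjusted p = 0.518). The log2 difference of WT from NTg was 0.03 ± 0.08 (interval -0.14 to 0.20, adjusted p = 0.842), and that of M337V from WT was 0.04 ± 0.07 (interval -0.12 to 0.20, adjusted p = 0.932). Without NTg 4 the first of these was 0.06 with adjusted p = 0.714 and the second 0.02 with adjusted p = 0.931. Without M337V 1 to 3, which the library numbers place after all other animals, M337V lay below NTg by a log2 of -0.01 (adjusted p = 0.943).

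The share of TARDBP reads that were human did not differ between the transgenic genotypes beyond their spread. The human share of human plus mouse reads was 31.8%, 30.2%, 30.9%, 38.2% and 32.9% in M337V animals 1, 2, 3, 7 and 9, against 34.2% and 30.9% in WT 8 and 10 and 33.3%, 0.0198% and 0.0757% in NTg 4, 5 and 6. M337V 7 was highest, with an exact 95% binomial interval of 37.1% to 39.4% that lay above the intervals of all other libraries, the next highest being WT 8 at 33.1% to 35.3%. The upper limits for NTg 5 and 6 were 0.11% and 0.194%. These intervals cover counting error only, because reads without molecular identifiers are not independent molecules. The mean share was 32.8 ± 3.19% in M337V (n = 5) and 32.5 ± 2.35% in WT (n = 2), a difference of 0.255 percentage points (exact permutation p = 0.952, also 0.952 adjusted over 9 tests). The share is one of reads and not of molecules, since the transcripts may differ in length and the way reads that match both species were assigned is not given.

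**Figure D2:**
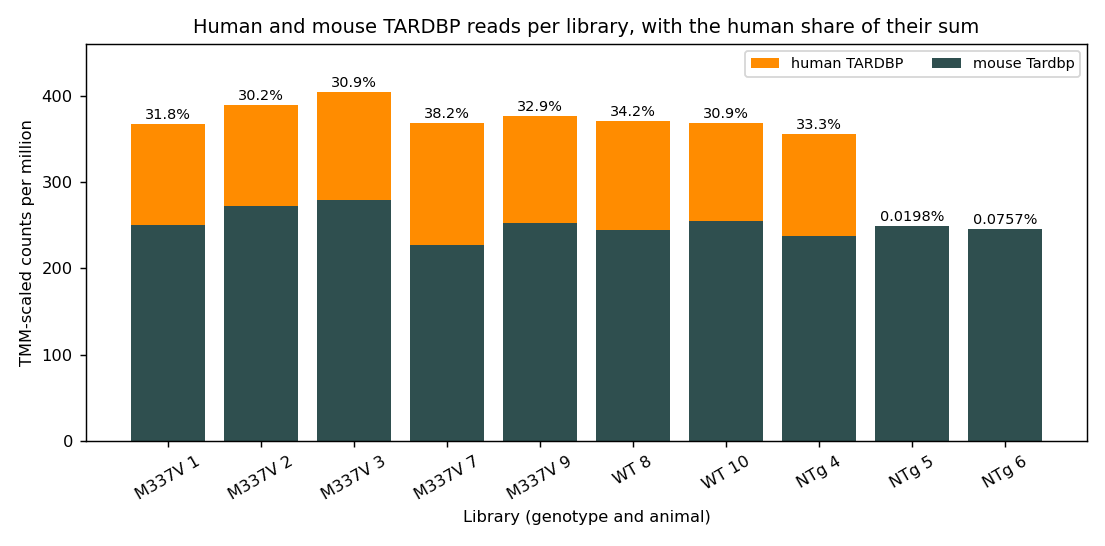
Stacked bars of mouse Tardbp (dark) and human TARDBP (orange) in TMM-scaled CPM for each M337V, WT and NTg library, with the human share of their summed reads printed above each bar. The 7 transgenic libraries and NTg 4 reach 355 to 405 CPM, and NTg 5 and NTg 6 reach 249 and 246 CPM.

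The sum of human and mouse TARDBP counts the reads of the transgene. A higher sum in mice that carry it is thus built into the measure unless mouse Tardbp falls. The sum was 367, 390, 405, 368 and 377 CPM in M337V animals 1, 2, 3, 7 and 9. It was 371 and 368 CPM in WT and 355, 249 and 246 CPM in NTg 4, 5 and 6. Every transgenic library lay above every NTg library, though the lowest, at 367 CPM, was near NTg 4 at 355 CPM. NTg 4 was closer to the transgenic libraries than to NTg 5 and 6. M337V averaged 381 ± 15.9 CPM against 284 ± 62.2 CPM in NTg, a difference of 97.7 CPM (exact permutation p = 0.0179, the smallest possible, and 0.161 adjusted over 9 tests) that became 134 CPM without NTg 4. WT averaged 370 ± 1.79 CPM (p = 0.2 against NTg in the exact permutation test, smallest possible 0.1, 0.45 adjusted). Neither difference from NTg passed after adjustment, but with these group sizes none of the 9 tests could have passed. That held even with every test at its smallest possible p. M337V and WT did not differ beyond their spread in this sum (exact permutation p = 0.524, 0.673 adjusted).

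Within the transgenic mice, libraries with more human TARDBP did not reliably have less mouse Tardbp. M337V 7 had the highest human and the lowest mouse level of the 7 libraries. Over the 7 libraries Pearson's r was -0.571 (exact permutation p = 0.185) and Spearman's rho was -0.464 (exact permutation p = 0.302). Without M337V 7 and WT 10, the libraries farthest from the median of human TARDBP, r was -0.106 over 5 libraries, and leaving out single libraries gave r between -0.815 and 0.0141, the last without M337V 7. The relation thus rests on M337V 7. The order of the libraries differed between the runs of library numbers. Within M337V 1 to 3 the libraries with more human TARDBP also had more mouse Tardbp, whereas in M337V 7 and 9 and WT 8 and 10 the order of the mouse levels was the reverse of the human one. Neither run holds the 6 libraries taken here as the least for a correlation, so the relation was not tested within them.

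Ewsr1 (chromosome 11, 5069689 to 5099266, minus strand), the FET gene with the least spread here, did not differ between genotypes beyond that spread. It stood at 209, 202, 201, 200 and 197 CPM in M337V animals 1, 2, 3, 7 and 9, against 208 and 178 CPM in WT 8 and 10 and 199, 191 and 208 CPM in NTg 4, 5 and 6. All ranges overlapped, and WT 10 was the lowest library. The M337V mean was 202 ± 4.29 CPM (n = 5), that of WT 193 ± 20.8 CPM (n = 2) and that of NTg 199 ± 8.53 CPM (n = 3). The log2 differences in the edgeR fit were 0.02 ± 0.05 between M337V and NTg (interval -0.10 to 0.14, adjusted p = 0.864), -0.05 ± 0.07 between WT and NTg (adjusted p = 0.711) and 0.06 ± 0.06 between M337V and WT (adjusted p = 0.862). Without NTg 4 the comparisons with NTg gave 0.03 for M337V and -0.04 for WT. The WT value followed WT 10, and leaving out single libraries moved the difference of WT from NTg between -0.16 and 0.06.

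Taf15 (chromosome 11, 83473086 to 83506743, plus strand), which encodes the FET protein that was first found as a component of TFIID, did not differ between genotypes beyond the spread of the animals either. Its level was 75.3, 76.6, 74.4, 66.5 and 75.0 CPM in M337V animals 1, 2, 3, 7 and 9, against 74.3 and 65.1 CPM in WT 8 and 10 and 72.0, 68.5 and 70.8 CPM in NTg 4, 5 and 6. M337V 7 and WT 10 were the lowest libraries, while 4 of the 5 M337V libraries lay above all NTg libraries. The M337V libraries averaged 73.6 ± 4.02 CPM (n = 5), with WT at 69.7 ± 6.52 CPM (n = 2) and NTg at 70.4 ± 1.78 CPM (n = 3). The log2 difference was 0.06 ± 0.06 for M337V against NTg (interval -0.07 to 0.19, edgeR adjusted p = 0.566) and 0.09 without NTg 4. It was -0.01 ± 0.08 for WT against NTg (adjusted p = 0.927), 0.01 without NTg 4, and 0.08 ± 0.07 for M337V against WT (adjusted p = 0.851).

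Matr3 (chromosome 18, 35562138 to 35593835, plus strand) was the member whose M337V and NTg libraries did not overlap. It stood at 426, 470, 472, 422 and 439 CPM in M337V animals 1, 2, 3, 7 and 9, against 407 and 455 CPM in WT 8 and 10 and 410, 397 and 370 CPM in NTg 4, 5 and 6. All 5 M337V libraries lay above all NTg libraries, whereas WT 8 lay below NTg 4 and WT 10 within the M337V range. The M337V mean was 446 ± 24.0 CPM (n = 5) against 392 ± 20.8 CPM in NTg (n = 3). The edgeR log2 difference was 0.18 ± 0.06 (95% interval 0.05 to 0.31) with an unadjusted p of 0.0096, and after adjustment over all genes it missed the threshold (adjusted p = 0.091; 0.122 without NTg 4, where the difference was 0.22). DESeq2 called it, with a log2 difference of 0.19 and adjusted p = 0.0241, as 1 of 1499 genes called among 15191 tested. WT averaged 431 ± 34.4 CPM, a log2 difference of 0.14 ± 0.07 from NTg (adjusted p = 0.278), and M337V differed from WT by 0.05 ± 0.07 (adjusted p = 0.912).

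The higher Matr3 reading in M337V came with other differences between the libraries. Summed levels of 4 oligodendrocyte markers were 28170 to 35073 CPM over the M337V libraries, 30567 and 34204 CPM in the WT libraries and 20818 to 24877 CPM over the NTg libraries. Summed levels of 4 neutrophil markers were 38.5 to 100.1 CPM over the M337V libraries, 21 and 69.6 CPM in the WT libraries and 113 to 382 CPM over the NTg libraries. Those of 4 skeletal muscle markers were 9.72 to 70.3 CPM over the M337V libraries, 10.3 and 225 CPM in the WT libraries and 72.9 to 383 CPM over the NTg libraries. None of these marker ranges overlapped between M337V and NTg, and none of the markers was at 0 throughout a genotype. The same held for 4 microglial markers, at 202 to 218 CPM over the M337V libraries, 206 and 216 CPM in the WT libraries and 162 to 189 CPM over the NTg libraries, and for 5 Hox genes of the caudal cord, at 31.8 to 158 CPM over the M337V libraries, 12.4 and 197 CPM in the WT libraries and 160 to 206 CPM over the NTg libraries. Summed levels of 4 astrocyte markers (5407 to 7300 CPM over M337V, 6333 and 7096 CPM for WT, 5491 to 5844 CPM over NTg) and of 4 Schwann cell markers (220 to 1466 CPM, 135 and 315 CPM, and 444 to 2050 CPM, with the genotypes in the same order) overlapped between M337V and NTg. Those of 4 neuron markers (4467 to 5348 CPM over M337V, 4909 and 5460 CPM for WT, 4348 to 4900 CPM over NTg) overlapped too. So did those of the motor neuron markers given above. Of single tested genes, 18.1% had ranges that did not overlap between M337V and NTg. The part of these marker levels in the Matr3 reading was not tested.

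Most of the Matr3 difference was gone once each library's trends over GC content and length were removed. Both were taken from the longest transcript of each gene, and a smooth curve was subtracted through offsets. The step also moved the median log2 difference of all tested genes, to 0.04 between M337V and NTg (-0.01 before), to 0.06 between WT and NTg (-0.02 before) and to -0.02 between M337V and WT (0.00 before), and the values after it are read against these medians. Matr3 has a GC content of 38.6% over its longest transcript, the lowest of the mouse members. It was read relatively low in NTg 5 and NTg 6. The curve at its GC content and length stood there at -0.09 and -0.15 on the log2 scale, and at -0.02 in NTg 4. It stood at -0.04, 0.04, 0.08, 0.04 and 0.02 in M337V animals 1, 2, 3, 7 and 9. In WT 8 and 10 it stood at 0.07 and 0.04. The curve thus itself differed with genotype, so its removal can also take away differences that go with genotype. What gave rise to the curve was not tested. After removal of the trends M337V exceeded NTg by a log2 of 0.07 ± 0.05 (interval -0.05 to 0.19, adjusted p = 0.523), and WT differed from NTg by -0.00346 (adjusted p = 0.982). After the same step Ewsr1, with a GC content of 53.2%, stood at 0.13 ± 0.05 for M337V against NTg (interval 0.02 to 0.25, adjusted p = 0.179) and at 0.12 for WT against NTg (adjusted p = 0.296), moves of which the shift of all genes makes up a part. For WT against NTg, Tardbp stood at -0.06 (adjusted p = 0.724), and Taf15 at 0.07 (adjusted p = 0.63), near the median of all genes as it had been before the step. After this step 0 of the 5 members passed the adjusted threshold in any comparison, as before it. Human TARDBP had no GC content or length here, so its own counts were left uncorrected.

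**Figure D3:**
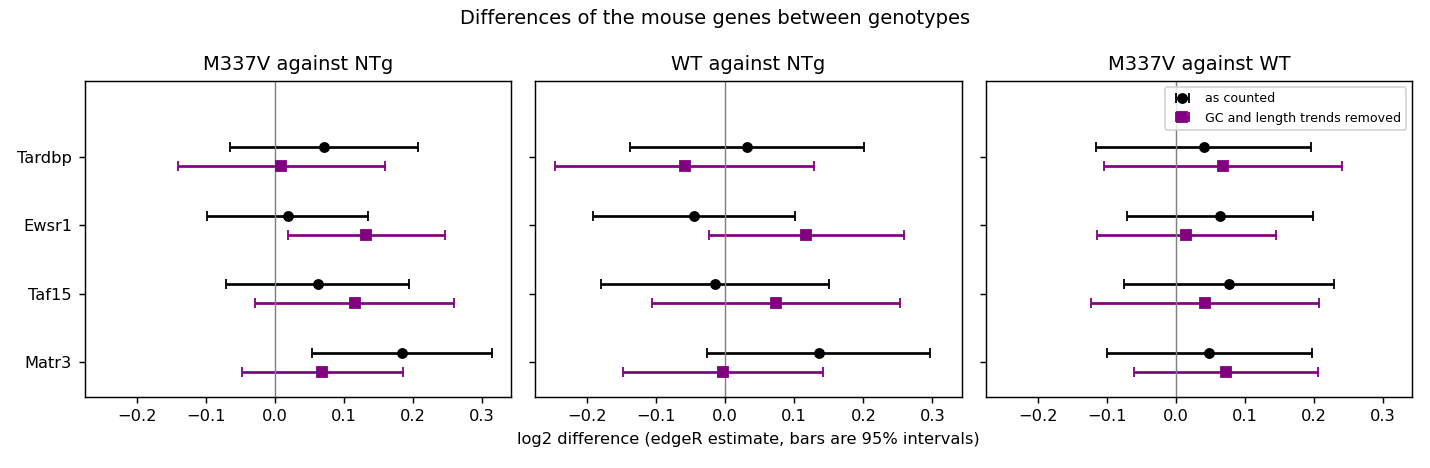
Log2 differences of the 4 mouse genes of M337V from NTg, of WT from NTg and of M337V from WT, as edgeR estimates with 95% intervals, before (black circles) and after (purple squares) removal of GC content and length trends from each library. The Matr3 difference of M337V from NTg moves from 0.18 to 0.07 and that of Ewsr1 from 0.02 to 0.13, while the median of all tested genes moves from -0.01 to 0.04.

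Counted over the members, 0 of 5 passed the adjusted threshold of the edgeR test in any comparison, and DESeq2, which gave no adjusted p for human TARDBP, called Matr3 between M337V and NTg and no other of the 4 mouse genes in any comparison. Of all 15191 tested genes 4.29% passed the edgeR test between M337V and NTg, 5.64% between WT and NTg, and 0.0% between M337V and WT. DESeq2 called 1499, 1720 and 30 of them in these comparisons. Between M337V and WT 1012 genes had an unadjusted edgeR p under 0.05. An unadjusted p under 0.05 was found for 1 of 5 members (Matr3, M337V against NTg), beside 24.5% of all genes in that comparison, and for 0 of 5 in the others. Ranges that did not overlap were found for 1 of 5 members in M337V against NTg, beside 18.1% of all genes, for 0 of 5 in WT against NTg, beside 41.7%, and for 0 of 5 in M337V against WT, beside 9.5%. Both comparisons with NTg share their control libraries.

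Among the animals, some of the mouse members departed from their means together in some libraries. Tardbp and Matr3 were both high in M337V 2 (log2 departures of 0.11 and 0.14) and M337V 3 (0.15 and 0.14), where Ewsr1 lay at 0.02 and 0.01. Taf15 lay at 0.09 in M337V 2, its highest library, and at 0.05 in M337V 3. In WT 10 Ewsr1 and Taf15 were low together (-0.16 and -0.14), while Tardbp and Matr3 were at 0.02 and 0.09. In M337V 7 Tardbp and Taf15 were low (-0.14 and -0.11), with Ewsr1 and Matr3 at 0.00 and -0.02. The genes that moved together therefore differed between libraries.

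**Figure D4:**
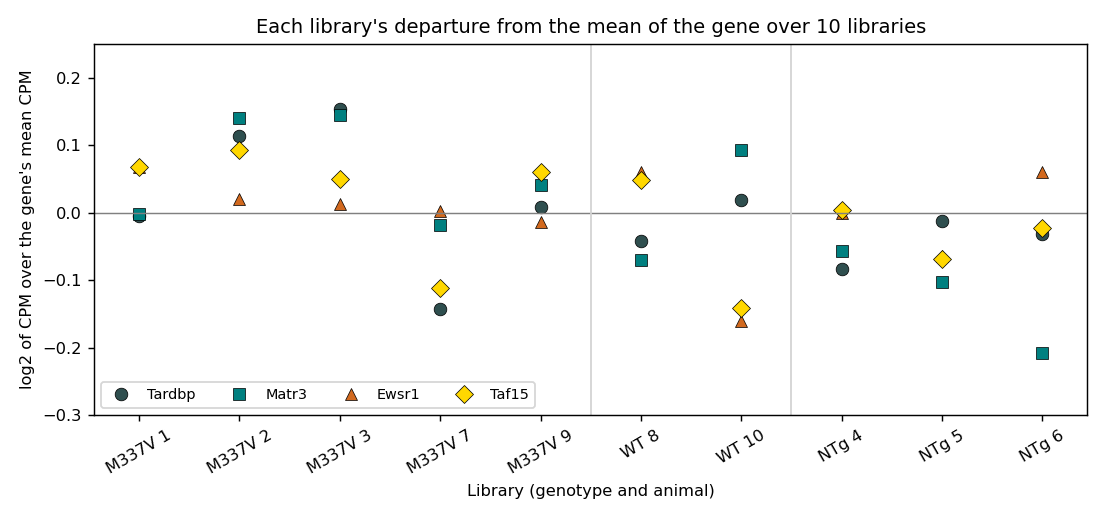
Log2 of each library's TMM-scaled CPM over the gene's mean CPM in all 10 libraries, for Tardbp, Matr3, Ewsr1 and Taf15; M337V, WT and NTg libraries are divided by grey lines. Ewsr1 and Taf15 share their low value in WT 10 (-0.16 and -0.14), and Matr3 is lowest in NTg 6 (-0.21).

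Over all 10 libraries Matr3 varied most among the mouse members and Ewsr1 least. The coefficient of variation was 6.07% for Tardbp, 4.62% for Ewsr1, 5.55% for Taf15 and 7.71% for Matr3, where counting alone gives 1.42%, 1.59%, 2.65% and 1.09%. The median of 4845 genes with at least 50 CPM was 6.98%. Of those genes 15.8% varied less than Ewsr1, 28.8% less than Taf15, 36.6% less than Tardbp and 60.0% less than Matr3. Removal of the GC and length trends lowered the coefficient of variation of Matr3 to 5.02% and raised those of Tardbp, Ewsr1 and Taf15 to 6.74%, 6.05% and 6.94%. Over the 7 transgenic libraries human TARDBP varied by 7.32% and mouse Tardbp by 6.79%.

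Per kilobase, the order of the mouse members depended on the length used. Over the union of exons in GENCODE, the mean level in 10 libraries was 42.0 ± 3.24 CPM per kb for Matr3, 33.7 ± 1.56 for Ewsr1, 32.2 ± 1.96 for Tardbp and 24.6 ± 1.37 for Taf15. Ewsr1 and Tardbp lay within their spread of each other. Per kilobase of the longest transcript, the mean level was 77.0 CPM per kb for Ewsr1, 68.2 for Matr3, 34.8 for Taf15 and 33.6 for Tardbp. Tardbp overlaps Masp2 on the opposite strand, and Ewsr1 overlaps Rhbdd3, also on the opposite strand. Matr3 overlaps Gm28285 and Gm36989 on its own strand and AC121821.3 on the other. Masp2 and Rhbdd3 are among the genes counted, whereas the genes that overlap Matr3 are not. The libraries were stranded, but the strand setting used in counting is not given, so reads in these overlaps cannot be assigned with certainty.

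The genes whose levels across the 10 libraries were most like each member, among 10239 genes that averaged 10 CPM or more, are given as a description without a test. For human TARDBP they were Hnrnpll (Pearson's r 0.945), an hnRNP known as a splicing regulator in lymphocytes, Tmem68 (0.930) and Vezf1 (0.928). Hnrnpll stood at 67.8, 71.2, 68.0, 65.8 and 67.3 CPM in M337V animals 1, 2, 3, 7 and 9, at 68.4 and 70.2 CPM in WT 8 and 10, and at 69.4, 58.3 and 58.1 CPM in NTg 4, 5 and 6. NTg 5 and 6 are the lowest libraries of both genes, which is what the choice by Pearson's r rewards, while Spearman's rho with human TARDBP was 0.188.

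For mouse Tardbp the most alike genes were Vezt (0.950), Pfdn2 (0.936), a prefoldin subunit, and Gria4 (0.926), an AMPA receptor subunit. For Ewsr1 they were Rbm5 (0.90), a splicing factor, Arnt (0.897) and Fbxl12 (0.895), and for Taf15 they were Kcnc2 (0.928), a potassium channel of fast-spiking neurons, Spice1 (0.874) and Mtmr1 (0.849). For Matr3 they were Commd8 (0.972), Ramac (0.971), which activates the mRNA cap methyltransferase, and Syf2 (0.964), a spliceosome component. An r over 0.9 was reached by 123 genes for Matr3, by 9 for human TARDBP, by 7 for Tardbp, by 1 for Taf15 and by 0 for Ewsr1. Ramac, at 71.3, 83.5, 86.3, 77.2 and 75.1 CPM in M337V animals 1, 2, 3, 7 and 9, 65.6 and 82.4 CPM in WT 8 and 10, and 65.2, 63.9 and 54.6 CPM in NTg 4, 5 and 6, shared with Matr3 its low level in NTg 6 and its high level in M337V 2 and 3.

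Genes that work with the members were counted in 5 lists of 81 genes in all. Among 30 hnRNP and paraspeckle proteins, nuclear RNA-binding proteins that include partners of TDP-43, 0 passed in any comparison, with a median log2 difference of 0.05 between M337V and NTg, 0.00 between WT and NTg, and 0.03 between M337V and WT. Over all tested genes these medians were -0.01, -0.02 and 0.00. An unadjusted p under 0.05 was reached by 8, 6 and 1 of the 30 in these comparisons. DESeq2 called 3, 1 and 0 of them, beside 1499, 1720 and 30 of all 15191 tested genes. Over all tested genes the shares with such an unadjusted p were 24.5%, 25.3% and 6.66%, so the list counts were near these shares or below them. The nearest to the threshold for M337V against NTg were Ptbp2, a neuronal splicing regulator, at 0.24 ± 0.06 (adjusted p = 0.0574), and Hnrnpu, a nuclear scaffold protein, at 0.24 ± 0.07 (adjusted p = 0.0634). Hnrnpa0 stood at 138, 138, 137, 97.8 and 93.0 CPM in M337V animals 1, 2, 3, 7 and 9, at 142 and 144 CPM in WT, and at 152, 139 and 145 CPM in NTg 4, 5 and 6, so that M337V 7 and 9 were the only libraries under 100 CPM.

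Among 12 nuclear import and export receptors, which carry proteins of this kind through the nuclear pore, 1 rose in WT against NTg and 0 passed in the other comparisons, where 4 (M337V against NTg) and 0 (M337V against WT) had an unadjusted p under 0.05 and DESeq2 called 3 and 0. In WT against NTg 5 had an unadjusted p under 0.05 and DESeq2 called 3. Such an unadjusted p was found for 24.5% of all tested genes in M337V against NTg and 25.3% in WT against NTg. DESeq2 called 1499 and 1720 of 15191 genes in these comparisons. The gene past the edgeR threshold was Tnpo1, encoding transportin 1, the import receptor of FET proteins. It stood at 190, 195, 206, 205 and 202 CPM in M337V animals 1, 2, 3, 7 and 9, at 196 and 227 CPM in WT 8 and 10, and at 178, 182 and 172 CPM in NTg 4, 5 and 6. All M337V and WT libraries lay above all NTg libraries. The log2 difference from NTg was 0.26 ± 0.07 for WT (edgeR adjusted p = 0.0465) and 0.17 ± 0.05 for M337V (adjusted p = 0.085). The WT call was lost in 12 of 17 alternatives, among them without NTg 4 (adjusted p = 0.0942), without WT 10 (a log2 difference of 0.15, adjusted p = 0.271) and after removal of the GC and length trends (0.15, adjusted p = 0.26). The list had a median log2 difference from NTg of 0.04 in M337V and 0.11 in WT.

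Among 15 subunits of TFIID, the complex that recruits RNA polymerase II and with which TAF15 associates, 1 rose against NTg in each transgenic genotype, and the gene was Taf13 in both. An unadjusted p under 0.05 was reached by 2 of the 15 in each comparison with NTg and by 0 between M337V and WT. Over all tested genes these shares were 24.5%, 25.3% and 6.66%. DESeq2 called 1, 1 and 0 of the list, beside 1499, 1720 and 30 of 15191 genes. Taf13 stood at 61.4, 71.1, 73.4, 63.0 and 61.8 CPM in M337V animals 1, 2, 3, 7 and 9. It stood at 64.6 and 68.7 CPM in WT 8 and 10, and at 49.4, 51.7 and 42.9 CPM in NTg 4, 5 and 6. The transgenic libraries all lay above the NTg libraries, NTg 4 included. The log2 difference was 0.46 ± 0.08 for M337V (edgeR adjusted p = 0.0199) and 0.47 ± 0.10 for WT (adjusted p = 0.0236), and M337V differed from WT by -0.01 ± 0.09 (adjusted p = 0.988). Without NTg 6 the differences were 0.39 (adjusted p = 0.132) for M337V and 0.40 (adjusted p = 0.0808) for WT, and without M337V 2 that of M337V was 0.44 (adjusted p = 0.0544). The WT call was also lost without NTg 4, WT 8 or WT 10 (adjusted p = 0.0501, 0.0561 and 0.104), where the differences were 0.50, 0.52 and 0.43. After removal of the GC and length trends both remained past the threshold, at 0.38 and 0.40 (adjusted p = 0.0141 and 0.0122). The list's median was 0.04 between M337V and NTg, 0.09 between WT and NTg, and -0.07 between M337V and WT.

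Among 20 transcripts known to be regulated by TDP-43, 1 rose in M337V against NTg, 1 rose and 1 fell in WT against NTg, and 0 passed between M337V and WT. An unadjusted p under 0.05 was reached by 6, 8 and 3 of the 20, beside 24.5%, 25.3% and 6.66% of all tested genes. DESeq2 called 2 higher in M337V than in NTg, 2 higher and 2 lower in WT than in NTg, and 0 between M337V and WT. Over all 15191 tested genes it called 1499, 1720 and 30. Nkain2, which encodes a brain membrane protein that interacts with the sodium pump, stood at 119, 136, 119, 119 and 110 CPM in M337V animals 1, 2, 3, 7 and 9, at 139 and 117 CPM in WT 8 and 10, and at 89.7, 96.8 and 77.9 CPM in NTg 4, 5 and 6. All transgenic libraries lay above all NTg libraries. The log2 difference was 0.45 ± 0.09 for M337V (edgeR adjusted p = 0.0235) and 0.54 ± 0.10 for WT (adjusted p = 0.0198). That of M337V was 0.39 without M337V 1 to 3 (adjusted p = 0.223). Without NTg 6 the differences were 0.37 (adjusted p = 0.149) and 0.45 (adjusted p = 0.0753), that of M337V was 0.41 without M337V 2 (adjusted p = 0.058) and 0.47 without NTg 4 (adjusted p = 0.0516), and that of WT was 0.41 without WT 8 (adjusted p = 0.083).

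Kcnip2, which encodes a partner of A-type potassium channels, fell in WT. It stood at 15.1, 15.7, 10.0, 12.4 and 15.8 CPM in M337V animals 1, 2, 3, 7 and 9, at 11.1 and 8.48 CPM in WT 8 and 10, and at 15.9, 17.6 and 15.3 CPM in NTg 4, 5 and 6. M337V overlapped both other genotypes, and WT lay below NTg. The log2 difference of WT from NTg was -0.73 ± 0.19 (edgeR adjusted p = 0.0448). The WT call was lost in 12 of 17 alternatives, in which the log2 difference stayed between -0.95 and -0.55 and the adjusted p ran from 0.0534 to 0.221, the last without WT 10. M337V exceeded WT by a log2 of 0.50 with adjusted p = 0.702. The list's median difference from NTg was -0.06 in M337V and -0.03 in WT.

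Among 4 genes of the Microprocessor and its DEAD-box partners, which process microRNA precursors and associate with TDP-43, 0 passed in any comparison by edgeR or DESeq2. An unadjusted p under 0.05 was reached by 1, 0 and 0 of them, beside 24.5%, 25.3% and 6.66% of all tested genes. Dgcr8, the RNA-binding subunit of the Microprocessor, had the smallest p for M337V against NTg, with a log2 difference of -0.13 ± 0.06 (edgeR adjusted p = 0.167). Over the 5 lists, 2 of 81 genes passed between M337V and NTg, 4 between WT and NTg, and 0 between M337V and WT, beside 4.29%, 5.64% and 0.0% of all tested genes. These counts are small and were not tested against the whole table. DESeq2 called 9 list genes in each comparison with NTg, beside 1499 (M337V) and 1720 (WT) of 15191 tested genes. In the edgeR test the 2 became 0 without M337V 2 or NTg 6, 1 without NTg 4 and 4 without M337V 9. The 4 became 0 without NTg 6, 1 without NTg 4, WT 8 or WT 10, and 2 without NTg 5, M337V 2, M337V 7 or M337V 9.

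**Figure D5:**
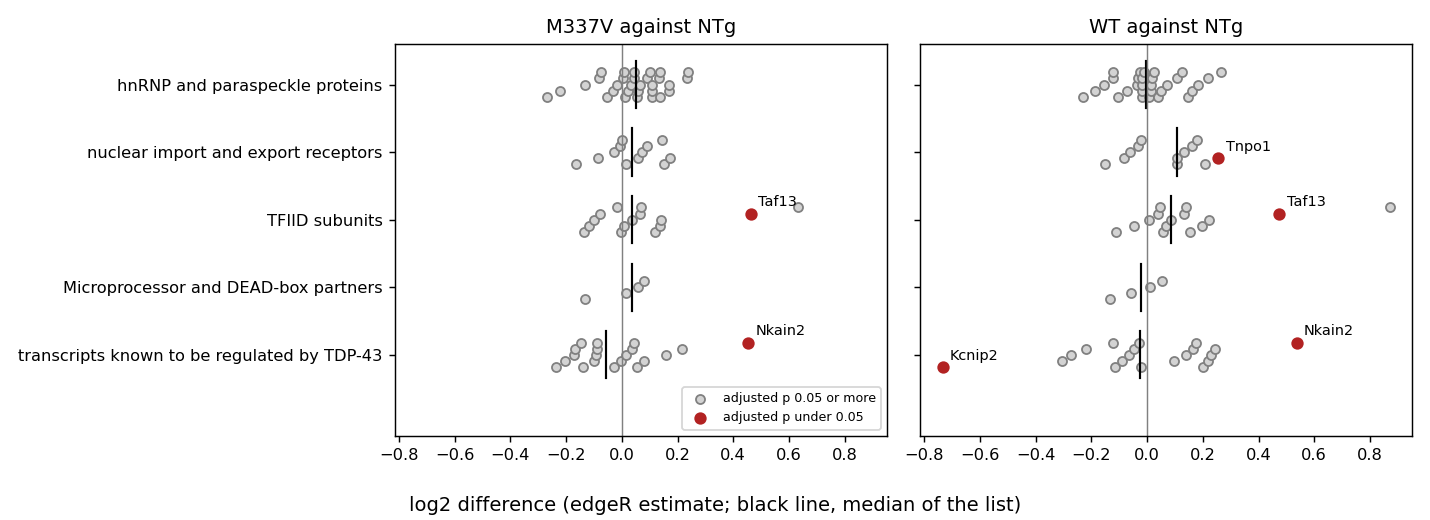
Log2 differences of 81 genes in 5 lists for M337V against NTg and WT against NTg (edgeR estimates); red points passed the adjusted threshold of 0.05, grey points did not, points are spread vertically for visibility and black lines mark the list medians. Taf13 and Nkain2 passed in both panels, Tnpo1 and Kcnip2 in the WT panel, and the list medians run from -0.06 to 0.11.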

How the data were processed

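The authors deposited raw counts of reads per gene, as whole numbers that had not been normalized. Per the submitters' processing notes, the tools included the aligner STAR 2.4.2a and the counter featureCounts of Subread 1.4.6, with no parameters stated. Which build, annotation and strand setting were used, and how reads that match both species were treated, is not given in the sources used here. Gene names and positions were taken from GENCODE (GRCm38). Per the labels, RNA had been stored in RNAlater and extracted with Trizol and miRNeasy, and libraries were stranded TruSeq polyA read pairs.

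Genotypes came from the labels. Counts were filtered with filterByExpr (minimum count 10, minimum total 15; 6833 genes removed), scaled by TMM and tested with edgeR 4.0.16 (quasi-likelihood, 1 fit of all 10 libraries, Benjamini-Hochberg over 15191 genes) in R 4.3.3. Exact two-sided permutation tests used TMM-scaled CPM and were adjusted over 9. With these group sizes none of the 9 could pass the adjusted threshold, even at its smallest possible p. The scripts were tested on simulated data. Alternatives were RLE size factors, no filter, the compared genotypes alone, DESeq2 1.42.0, GC and length trends (splines with 5 degrees of freedom) removed, and libraries left out. Named genes were the members, per list up to 4 genes with the smallest p per comparison and all past the threshold, and per member the 3 genes most correlated with it on log2 CPM (prior count 2); the text gives some of these. The members, lists and alternatives were chosen with earlier results of these data known.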

Additional observations from a re-analysis of the deposited data

Results flagged for a closer look

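Taf15 in M337V 7, at 66.5 CPM, lay far from the other 4 M337V libraries (74.4 to 76.6 CPM). The gap to the nearest of them was 0.782 of the whole range of the group. Of 7 measures examined in the M337V group (the levels of the 5 genes, the human share and the summed TARDBP level) this was the 1 that stood apart by this measure, and chance sets apart about 1 in 20 such groups. The same library had the highest human TARDBP level (141 CPM) and the lowest Tardbp level (228 CPM) in the group.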

How the results depend on the processing

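No paired analysis was possible because the genotypes share no animal number. Counting alone gives a coefficient of variation of 1.09% to 2.65% for the mouse members, while human TARDBP in NTg 5 and 6 rests on 1 and 4 reads. DESeq2 gave no adjusted p for human TARDBP. Of 477 values under alternative settings, 409 kept their direction and side of the threshold; changes not named here were single libraries left out.

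Without NTg 4 and WT 8 together, the log2 difference of human TARDBP from NTg was 9.96 in M337V and 9.83 in WT, past the threshold, and Matr3 turned to -0.031 between M337V and WT. The genes called were then 142 between WT and NTg and 4 between M337V and WT, with 0 of the list genes for WT. Without M337V 1 to 3, Tardbp turned to -0.014 against NTg and -0.059 against WT, and Matr3 turned to -0.0068 against WT. In that setting 3 genes were called for M337V against NTg, 1 of them in the lists, which was neither Taf13 nor Nkain2. With DESeq2, Matr3 passed for M337V against NTg (0.19), and 1499 genes were called between M337V and NTg, 1720 between WT and NTg, and 30 between M337V and WT, with 9 list genes in each comparison with NTg. With only the compared genotypes in the fit, the calls against NTg were 1057 in M337V and 258 in WT, with 4 and 0 list genes. With no filter, 1 gene was called for M337V against WT. With GC and length trends removed, WT against NTg turned to -0.059 for Tardbp, 0.12 for Ewsr1, 0.074 for Taf15 and -0.00346 for Matr3, beside a median of all genes that stood at 0.059, against -0.017 before, so that Taf15 stayed near it. The cause of these changes was not tested.

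Leaving out single libraries gave these ranges. For M337V against NTg they were 1.08 to 9.96 for human TARDBP, -0.012 to 0.050 for Ewsr1, 2 to 1016 genes called and 0 to 4 list genes. For WT against NTg they were 1.02 to 9.91 for human TARDBP, -0.16 to 0.061 for Ewsr1, -0.11 to 0.078 for Taf15, 44 to 1086 genes called and 0 to 6 list genes. For M337V against WT they were -0.024 to 0.13 for human TARDBP, -0.042 to 0.18 for Ewsr1, -0.016 to 0.18 for Taf15, -0.030 to 0.13 for Matr3 and 0 to 6 genes called. The mean of human TARDBP in M337V less that in WT ranged from -2.09 to 11.05 CPM, and that of the human share from -1.41 to 1.92 percentage points. The correlation of human with mouse TARDBP ranged from -0.815 to 0.0141.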
